A study of Mus musculus with 48 samples.

Results

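The hippocampal response to a brief open field exposure was examined in the CB1-WT mice of the GABA-CB1 line, by comparing the 7 libraries labelled as open field with the 6 labelled as basal. These 13 libraries were taken by their sample labels out of 48 in the series, and each was made from the dissected CA region (cornu ammonis, with the dentate gyrus removed) of 1 male mouse. All 13 mice came from the strain labelled dlx5/6-cre x CB1f/f, in which Cre recombinase driven by Dlx5/6 regulatory elements removes the CB1 cannabinoid receptor from GABAergic neurons of the GABA-CB1-KO littermates. The labels do not say which of the Cre and floxed CB1 alleles each wild type carried. The age label is 8 weeks, and the protocol gives a range up to 10 weeks. Basal mice were taken from the home cage, whereas open field mice explored a white arena for 5 min and tissue was taken about an hour later. The study picked its open field samples partly by Arc mRNA measured by RT-qPCR and by tissue purity, so that a higher level of Arc, and of genes that move with it, is not independent of how these mice were chosen. The study's text gives another number of mice for this group than the labels do. The labels were followed, and Cnr1, the gene of CB1, had a normalized count between 312 and 394 CPM (the reads of a gene scaled to a common library size) in the 13 libraries labelled CB1-WT against 101 to 159 CPM in the 11 labelled GABA-CB1-KO.

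Neuronal firing opens calcium entry through receptors and channels, and the calcium and MAP kinase signals that follow switch on immediate early genes without new protein synthesis. Many of these genes encode transcription factors of the AP-1 (FOS and JUN), EGR and NR4A families, which in turn act on later genes. A new environment is a standard stimulus for them in hippocampal pyramidal cells, and their mRNAs rise and decay within hours, each with its own time course.

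Counts summed over genes ranged from 30952156 to 34091080 in basal and from 27738566 to 32899608 in open field libraries. CPM were scaled by the TMM method over these libraries. In the first principal component of the 500 genes of highest variance (26.9% of the variance), open field and basal libraries did not separate (exact permutation test, two-sided, p = 0.144). Its highest scores were those of basal replicates 1 and 5 and open field replicate 1. In these 3 libraries, Xkr4, a gene used only as a marker of this split, was at 3.24 to 4.71 CPM against 20.1 to 31.4 CPM in the other 10, and 1428 of 15116 genes (9.45%) did not overlap between the 3 and the 10. The labels name no batch that sets them apart. Without these 3 libraries, the open field and basal libraries differed in the first component (31.7% of the variance, exact permutation test, p = 0.019). This setting was added after the data were seen. Its 4 basal libraries include basal replicate 3, and leaving out that library as well was not tried. Basal replicate 3 held more RNA of choroid plexus (Ttr at 1398 CPM, against a median of 43.4 CPM in the basal group and at most 51.2 CPM in the open field group). Counts of called genes are given with and without these libraries, and the values of single genes only for some.

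**Figure D1:**
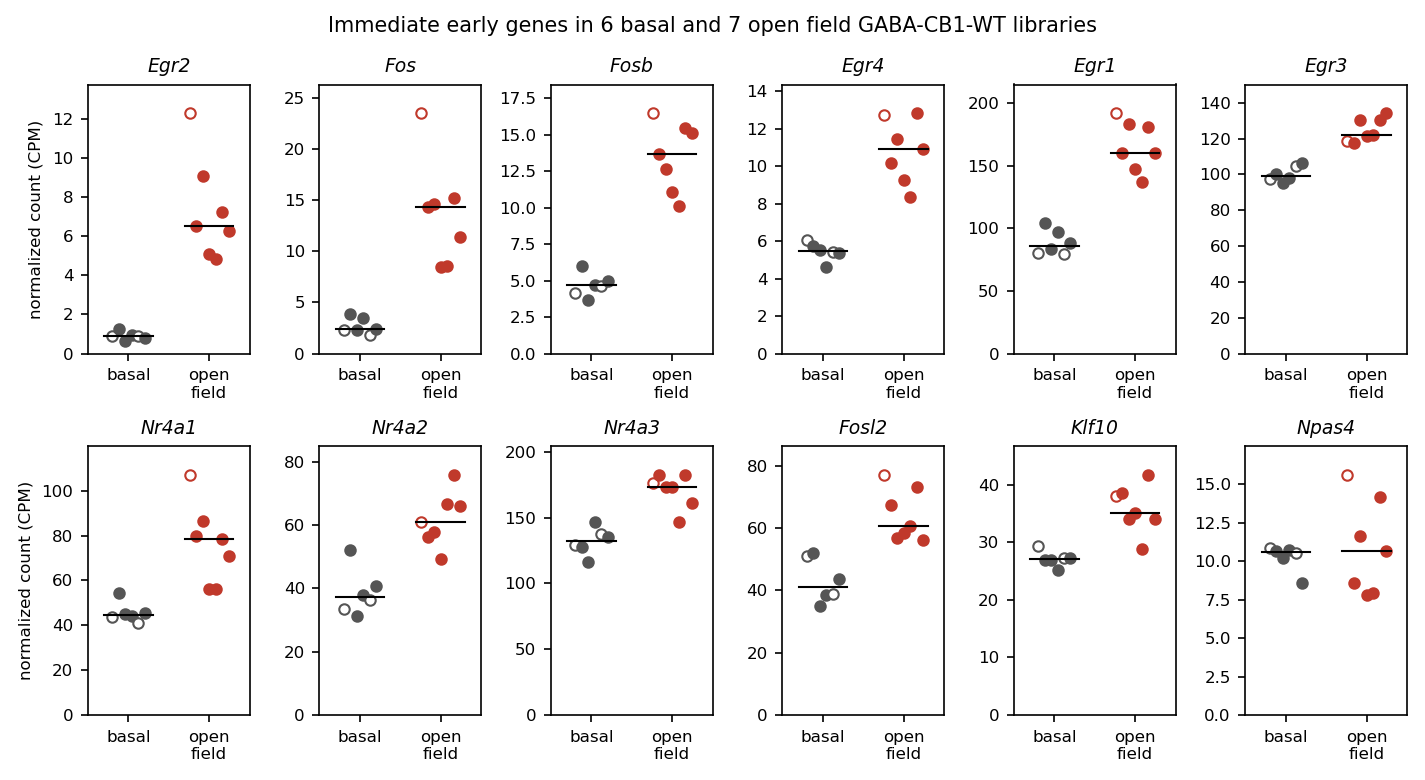
Normalized counts (vertical axes, CPM, each starting at 0) of 12 immediate early genes in 6 basal (grey) and 7 open field (red) libraries of GABA-CB1-WT mice. Each point is 1 library, lines are group medians, and open symbols mark the 3 libraries with low Xkr4. Egr2, Fos, Fosb, Egr4, Egr1, Egr3, Nr4a1 and Fosl2 show no overlap between the groups, whereas the medians of Npas4 are both 10.6 CPM.

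After the open field, 24 of 15116 tested genes (0.159%) changed at a Benjamini-Hochberg adjusted p under 0.05 in edgeR's quasi-likelihood test. Of these, 23 were higher (0.152%) and 1 was lower (0.00662%). The rise was large for few of them. Egr2, Fos and Fosb rose by more than 2-fold, and 14 of the 23 rose by less than 0.5 on the log2 scale, while the median difference of all tested genes was -0.01. In 17 of the 23, every open field library lay above every basal library, which was the case for 72 of all genes tested (0.476%). Without the 3 libraries of low Xkr4, 6 genes were called, all of them higher (Egr2, Fos, Fosb, Egr1, Egr4 and Egr3), and all 24 kept their direction. With that split as a covariate, 46 genes were called, 39 of them higher, and these included all 24. DESeq2 called 219 genes, 169 of them higher and 50 lower, and these also included all 24.

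Among the AP-1 genes, Fos rose most. It was at 1.80, 2.39 and 3.83 CPM (lowest, median and highest library) in the basal group and at 8.44, 14.4 and 23.5 CPM in the open field group. The lowest open field library was thus above every basal one. The difference was 2.34 ± 0.25 on the log2 scale (SE, 7 against 6 libraries), or 5.06-fold (edgeR, adjusted p = 0.000195). The highest value belonged to open field replicate 1, one of the low Xkr4 libraries, and without those 3 the difference was 1.99 (adjusted p = 0.000588). Fosb, which encodes another FOS protein and its long-lived splice form, was at 3.68, 4.66 and 5.98 CPM in basal libraries and at 10.1, 13.6 and 16.5 CPM in open field libraries. These ranges did not overlap either, and the difference was 1.53 ± 0.13 (2.88-fold, adjusted p = 1.81e-05). Fosl2, the gene of FRA-2, started from a higher level, with 35, 41.2 and 51.8 CPM in the basal and 56.1, 60.6 and 77.1 CPM in the open field group (log2 difference 0.58 ± 0.10, adjusted p = 0.0274). All open field values of Fosl2 exceeded the basal ones, but its call was lost without the 3 libraries (0.56, adjusted p = 0.0789).

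The JUN partners of these proteins did not pass the test in the 13 libraries without a covariate or a block for the replicate number. Junb was at 12.8, 14.6 and 18.6 CPM in basal and at 18.2, 22.4 and 30.7 CPM in open field libraries, with 5 of 7 above all basal values (0.60 ± 0.12, adjusted p = 0.0609). Junb was called by DESeq2 (adjusted p = 0.000238) and in edgeR fits with all 48 libraries (adjusted p = 0.0422), with the 24 libraries of the line (0.0449), with the range of animal numbers (0.0309) or with the Xkr4 split as covariate (0.0135). Jun showed a log2 difference of -0.04 ± 0.07 (adjusted p = 0.814), with open field libraries from 45.2 to 61.8 CPM inside or below the basal range of 52.1 to 65.4 CPM.

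All 4 EGR genes rose. Egr2, at chr10:67537869-67542188 (mm10), showed the largest called difference of all genes, with 0.624, 0.897 and 1.28 CPM in the basal group and 4.83, 6.55 and 12.3 CPM in the open field group. No open field library came within 3-fold of the highest basal one. The log2 difference was 3.00 ± 0.24 (8.02-fold, adjusted p = 1.81e-05), and 2.82 without the 3 low Xkr4 libraries (adjusted p = 5.82e-05). Egr4 went from 4.62, 5.48 and 6.04 CPM to 8.33, 10.9 and 12.8 CPM, a difference of 0.99 ± 0.10 (1.98-fold, adjusted p = 0.000142). Egr1 was far more abundant, with 79.8, 86.2 and 105 CPM in basal and 137, 161 and 192 CPM in open field libraries. Its difference of 0.90 ± 0.08 (1.86-fold, adjusted p = 5.33e-05) was smaller as a ratio than that of Egr2 although it amounted to many more reads. Egr3 showed the smallest spread of the 4 relative to its level, with basal libraries between 95.2 and 106 CPM (median 99.3) and open field libraries between 117 and 134 CPM (median 122). A difference of 0.32 ± 0.04 (1.24-fold, adjusted p = 0.001) was therefore enough for the groups not to overlap.

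The basal levels of these genes were unlike. Per base of exon and scaled for depth (RPKM), a scale on which genes can be compared, mean basal levels were 0.308 for Egr2, 1.24 for Fosb, 1.30 for Fos and 2.6 for Egr4, but 29 for Egr1, 25.1 for Egr3 and 23.6 for Nr4a3. After the open field the mean levels were 2.47 for Egr2, 3.57 for Fosb, 6.56 for Fos and 54.0 for Egr1. In these mice the genes with the largest ratios were thus those near silence in the home cage, and after the open field Egr2 and Fosb were still far below the basal level of Egr1 and Egr3.

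The NR4A genes, which encode orphan nuclear receptors, all passed the test in the 13 libraries. Without the 3 low Xkr4 libraries edgeR called none of them (adjusted p = 0.101 for Nr4a1, 0.135 for Nr4a2 and 0.0801 for Nr4a3). Of 13 fits that left out 1 library, 5 kept the call of Nr4a1, 8 that of Nr4a2 and 13 that of Nr4a3. Nr4a1 was at 41, 44.7 and 54.6 CPM in basal and at 56.0, 78.7 and 107 CPM in open field libraries. The ranges did not overlap, and the difference was 0.74 ± 0.13 (1.67-fold, adjusted p = 0.0265). Basal replicate 2 at 54.6 CPM stood apart from the next basal library at 45.4 CPM. Nr4a2 rose from 31.1, 37.2 and 52.2 CPM to 49.1, 61.0 and 75.8 CPM (0.67 ± 0.11, adjusted p = 0.0253). In Nr4a2 that same basal library lay inside the open field range, and 6 of 7 open field libraries were above all basal ones. Nr4a3 was the most abundant in CPM, with 116, 132 and 147 CPM in basal and 147, 173 and 183 CPM in open field libraries (0.37 ± 0.06, adjusted p = 0.0119). Klf10, a zinc finger factor first described as induced by TGF-beta, was at 25.2, 27.1 and 29.3 CPM and at 28.9, 35 and 41.7 CPM (0.40 ± 0.07, adjusted p = 0.0253), with 1 open field library inside the basal range. Its call was also lost without the 3 low Xkr4 libraries (edgeR, adjusted p = 0.0863).

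Over the whole list of immediate early transcription factors, 11 of 31 tested genes were called higher and none lower, against 0.152% and 0.00662% of all genes. The median difference of the list was 0.185, and 17 members were higher and none lower at an unadjusted p under 0.05. In 9 of the 31 every open field library lay above every basal one, against 0.476% of all genes. Bhlhe40 was among them (93.4 to 117 CPM against 118 to 148 CPM, 0.29 ± 0.06, adjusted p = 0.0678). The summed level of the list was 848 to 954 CPM in basal and 1062 to 1283 CPM in open field libraries. Fosl1 was too low to be tested. Some well-known members showed little difference. Npas4, a neuron-specific factor switched on by calcium entry, had basal libraries at 8.54, 10.6 and 10.9 CPM and open field libraries at 7.82, 10.6 and 15.6 CPM (0.09 ± 0.15, adjusted p = 0.811). The 95% interval of its log2 difference, from -0.20 to 0.38, leaves room for a modest change in either direction. Open field libraries of Npas4 lay on both sides of the narrow basal range, with replicates 1, 3 and 6 above it.

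To place these genes next to their regulatory sequence, the 300 bases from 250 before to 50 after the transcription start (RefSeq, GRCm38.p6) were read for 3 genes of the largest rise, for Errfi1 and Dusp6 of the MAP kinase feedback group, and for Npas4, whose median did not differ. Each is printed 5′ to 3′ on the strand of its gene, and the positions are Egr2 at chr10:67537619-67537918 (plus strand), Fos at chr12:85473640-85473939 (plus strand), Fosb at chr7:19309996-19310295 (minus strand), Errfi1 at chr4:150854820-150855119 (plus strand), Dusp6 at chr10:99262981-99263280 (plus strand) and Npas4 at chr19:4989922-4990221 (minus strand). Capitals mark the cyclic AMP response element (CRE, TGACGTCA), its core TGACG on either strand, which the CRE itself contains, and the CArG box bound by serum response factor.
Egr2: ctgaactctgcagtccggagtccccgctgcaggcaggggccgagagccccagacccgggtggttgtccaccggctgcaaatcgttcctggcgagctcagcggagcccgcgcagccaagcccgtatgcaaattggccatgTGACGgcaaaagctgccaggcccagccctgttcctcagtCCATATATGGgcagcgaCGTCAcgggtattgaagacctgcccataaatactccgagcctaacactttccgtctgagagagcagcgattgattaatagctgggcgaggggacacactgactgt
Fos: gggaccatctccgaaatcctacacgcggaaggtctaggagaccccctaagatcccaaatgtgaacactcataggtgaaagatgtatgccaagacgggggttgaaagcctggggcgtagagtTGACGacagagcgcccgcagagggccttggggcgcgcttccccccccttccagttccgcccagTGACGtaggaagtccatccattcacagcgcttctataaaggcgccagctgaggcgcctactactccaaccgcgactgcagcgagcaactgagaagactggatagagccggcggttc
Fosb: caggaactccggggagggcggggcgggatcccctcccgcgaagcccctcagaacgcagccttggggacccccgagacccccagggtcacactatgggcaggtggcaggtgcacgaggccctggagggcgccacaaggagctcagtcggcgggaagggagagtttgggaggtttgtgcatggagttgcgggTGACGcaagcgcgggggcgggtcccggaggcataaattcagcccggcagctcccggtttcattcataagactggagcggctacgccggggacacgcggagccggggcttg
Errfi1: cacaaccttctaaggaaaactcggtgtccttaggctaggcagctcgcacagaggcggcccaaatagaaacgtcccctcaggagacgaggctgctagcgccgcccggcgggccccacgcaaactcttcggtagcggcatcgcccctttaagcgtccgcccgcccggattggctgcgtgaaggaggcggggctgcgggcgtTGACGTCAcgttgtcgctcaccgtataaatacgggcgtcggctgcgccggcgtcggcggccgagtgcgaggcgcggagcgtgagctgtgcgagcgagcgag
Dusp6: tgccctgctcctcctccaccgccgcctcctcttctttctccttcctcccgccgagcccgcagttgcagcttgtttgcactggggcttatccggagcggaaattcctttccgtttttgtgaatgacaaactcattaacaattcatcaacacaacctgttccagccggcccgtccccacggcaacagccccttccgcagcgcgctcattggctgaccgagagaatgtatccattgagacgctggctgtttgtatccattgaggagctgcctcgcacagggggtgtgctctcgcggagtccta
Npas4: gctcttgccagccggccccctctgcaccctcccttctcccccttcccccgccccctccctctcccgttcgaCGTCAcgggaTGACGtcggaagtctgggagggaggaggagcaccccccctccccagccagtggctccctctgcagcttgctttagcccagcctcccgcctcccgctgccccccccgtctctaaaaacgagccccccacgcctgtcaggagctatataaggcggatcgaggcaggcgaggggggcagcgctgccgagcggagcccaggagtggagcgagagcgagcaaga
Egr2 holds a CArG box and 2 CRE cores, Fos holds 2 cores, Fosb 1, and Errfi1 a complete CRE, in which both strands hold the core. Dusp6 holds none of the 3 motifs in this window. Npas4 holds 2 cores as well, so that the presence of these letters did not go with a higher level in every gene. Genes with several starts have several windows and were counted where any of them held a motif. Of the 23 genes that rose, 18 had a window, and 12 of these (66.7%) held the TGACG core on either strand, compared with 3860 of 11405 tested genes (33.8%). A complete CRE was found in 2 of the 18 (Errfi1 and Crkl) and in 3.45% of all, and a CArG box in 2 (Egr2 and Prkab2) and in 1.58% of all. The AP-1 motif TGANTCA was found in 1 of the 18 and in 6.23% of all, the E-box CACGTG in 2 and in 11.3%, and the EGR motif GCGNGGGCG in 5 and in 12.1%. These counts are a description of letters in short windows, and binding was not measured. Egr1, Egr3, Klf10, Spry4 and Ptpn12 had no window in the table used.

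A second group of called genes encodes inhibitors of growth factor and MAP kinase signalling. Errfi1 encodes MIG6, which binds and blocks the EGF receptor. Its basal libraries were at 42.3, 44.4 and 47.7 CPM and its open field libraries at 48.6, 60.7 and 69.4 CPM, without overlap (0.43 ± 0.06, 1.34-fold, adjusted p = 0.0072). Dusp6, a phosphatase of ERK, was at 60.4, 63.1 and 73.8 CPM and at 67.5, 89.1 and 95.9 CPM (0.40 ± 0.07, adjusted p = 0.0381). Spry4, an inhibitor of the RAS and ERK cascade, was at 11.7, 14.2 and 15.9 CPM and at 15.7, 18.9 and 20.5 CPM (0.40 ± 0.07, adjusted p = 0.0265). Spred1, of a related family, was the most abundant, with 154, 159 and 178 CPM and 175, 194 and 210 CPM (0.26 ± 0.04, adjusted p = 0.0253). In the latter 3 genes, 6 of 7 open field libraries lay above all basal ones. Without the 3 low Xkr4 libraries edgeR called none of these inhibitors (adjusted p = 0.0789 for Errfi1, 0.152 for Dusp6, 0.135 for Spry4 and 0.0657 for Spred1). Of 13 fits that left out 1 library, 3 kept the call of Dusp6, 4 that of Spry4, 7 that of Spred1 and 13 that of Errfi1. Of 18 feedback inhibitors tested, 4 were called higher and none lower, against 0.152% and 0.00662% of all genes. At an unadjusted p under 0.05, 8 were higher and 1 lower (6.84% and 6.73% of all genes), and the median difference was 0.035. Dusp5, a nuclear phosphatase of ERK, differed by 0.41 without passing (adjusted p = 0.21). Spry2 had a difference of -0.17 that did not pass (adjusted p = 0.286). Dusp1, an immediate early phosphatase, had 8.82, 9.17 and 13.2 CPM against 10.2, 11.6 and 17.6 CPM (0.42 ± 0.13, adjusted p = 0.214). Outside these lists, Crkl, an adaptor in the same cascade, went from 63.1, 65.6 and 68.5 CPM to 70.4, 75.4 and 83.5 CPM (0.21 ± 0.04, adjusted p = 0.0384). Its call was kept in 4 of 13 fits that left out 1 library.

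The other genes called higher were changed by small amounts in tight groups. Mcl1, an inhibitor of apoptosis of the BCL-2 family, was at 69.0, 72.0 and 74.0 CPM in basal and at 74.9, 86.8 and 91.9 CPM in open field libraries (0.25 ± 0.04, adjusted p = 0.0197). Prkab2, a regulatory subunit of the AMP-activated kinase, was at 66.4, 71.4 and 72.7 CPM and at 75.0, 84.2 and 97.1 CPM (0.27 ± 0.05, adjusted p = 0.028). It was the only gene called among 31 genes of calcium and cyclic AMP signalling, whose median difference was 0.025. Frmd6, a FERM domain protein, was between 18.8 and 20.5 CPM in basal and between 21.8 and 25.1 CPM in open field libraries (0.23 ± 0.04, adjusted p = 0.0265). Cyp51, the lanosterol demethylase of cholesterol synthesis, was between 57.3 and 62.5 CPM and between 64.5 and 76.2 CPM (0.21 ± 0.04, adjusted p = 0.029). None of these 4 genes had overlapping groups. Slc7a1, a cationic amino acid transporter (0.18 ± 0.03, adjusted p = 0.0253), and Ptpn12, a tyrosine phosphatase (0.16 ± 0.03, adjusted p = 0.0375), were outside the rule for named genes and are added after their values were seen. With basal libraries of 51.4 to 57.2 CPM and 42.1 to 45.7 CPM and open field libraries of 60.3 to 64.5 CPM and 47.2 to 51.1 CPM, they are the smallest differences called. Of 13 fits that left out 1 library, 4 each kept the calls of Prkab2, Cyp51 and Ptpn12. Frmd6 was called in 6 of them, Slc7a1 in 7 and Mcl1 in 10. Noxred1 stood apart from this set. It was low in both groups, with 0.905, 1.07 and 1.34 CPM in basal and 1.6, 2.01 and 2.6 CPM in open field libraries, and its difference of 0.98 ± 0.14 (1.98-fold, adjusted p = 0.00804) was as large as that of Egr4. At this level it rests on few reads per library.

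Slc15a3, a transporter of peptides and histidine, was the only gene called lower. It was at 1.37, 1.48 and 1.56 CPM in basal and at 0.865, 0.946 and 1.16 CPM in open field libraries, which did not overlap (-0.57 ± 0.10, adjusted p = 0.028). Groups that do not overlap with lower open field values were found for 28 of all genes (0.185%). The call was lost without the 3 low Xkr4 libraries (-0.55, adjusted p = 0.177). It was kept in 3 of 13 fits that left out 1 library and in 6 of 11 alternative fits, and so was the call of Dusp6. At this level Slc15a3, like Noxred1, rests on few reads per library. Markers of microglia, which also express this gene, had differences of the same sign. All 12 were below 0, with a median of -0.121, and 6 had an unadjusted p under 0.05, against 6.73% of all genes that were lower at that level (C1qa, C1qb, C1qc, Siglech, Aif1 and Trem2). None was called by edgeR in the 13 libraries without a covariate or a block for the replicate number. C1qa was called by DESeq2, and by edgeR with that block (adjusted p = 0.0284), although the replicate numbers do not pair the mice. The summed level of the microglia markers was 453.3 to 507.1 CPM in basal and 417.7 to 454.7 CPM in open field libraries. C1qa, a complement component, was at 31.5, 35.8 and 38.7 CPM and at 27.2, 29.2 and 34.6 CPM (-0.26 ± 0.06, adjusted p = 0.0960). Their part in the result for Slc15a3 was not tested. In bulk tissue, fewer cells of a type and less RNA per cell cannot be told apart.

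**Figure D2:**
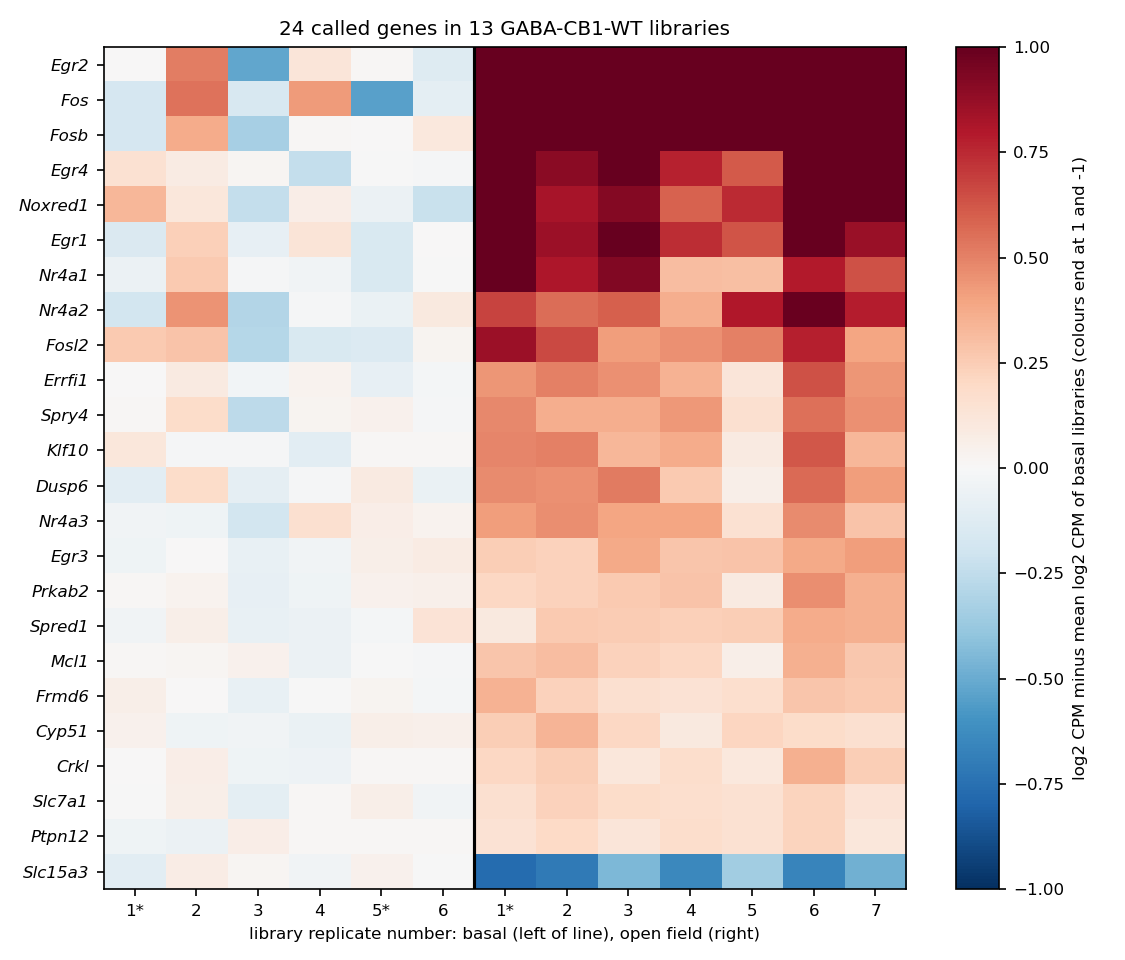
Log2 CPM of the 24 called genes (rows, by size of the difference) in 13 libraries (columns), relative to the mean of the 6 basal libraries. Red is higher and blue lower, colours end at 1 and -1, and an asterisk marks the libraries with low Xkr4. Open field replicate 6 is the darkest and replicate 5 the palest column on the right, and basal replicate 2 is the reddest on the left.

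The extent of the response differed among mice. Over the 23 genes that rose, the median difference of single open field libraries from the basal mean ran from 0.218 (replicate 5) to 0.563 (replicate 6) on the log2 scale. Replicate 6 held the highest open field value of 13 genes and replicate 5 the lowest of 13. Replicate 1, of the low Xkr4 libraries, held the highest value of 7 genes, among them Egr2, Fos, Fosb, Egr1 and Nr4a1. Each open field library exceeded all basal libraries in at least 19 of the 23 genes. Among basal mice, replicate 2 held the highest value of 11 of these genes and replicate 3 the lowest of 12. The number of genes called depended on such libraries. It was 53 without open field replicate 5 and 38 without open field replicate 1, and it fell to between 9 and 13 without any of basal replicates 1, 3, 4, 5 or 6 or of open field replicates 2 or 6. Of the 24 genes, 9 were called in each of the 13 fits that left out 1 library: Egr2, Fosb, Egr1, Egr4, Fos, Egr3, Errfi1, Noxred1 and Nr4a3.

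Genes of synapses and secreted proteins that follow neuronal activity leaned in the same direction at smaller size. Of 35 tested, edgeR called none in the 13 libraries without a covariate or block. DESeq2 called 8 higher, against 169 of all 15116 genes. At an unadjusted p under 0.05, 14 were higher and none lower (6.84% and 6.73% of all genes), and the median was 0.103. Arc, which encodes a cytoskeletal protein of dendrites and was used to choose the mice, was at 75.3, 80.8 and 119 CPM in basal and at 86.5, 130 and 217 CPM in open field libraries. Its difference of 0.69 ± 0.18 was larger than that of Egr3 or Errfi1, but the spread among mice was wide and it did not pass (adjusted p = 0.143). Basal replicate 2 at 119 CPM was above 2 of the 7 open field libraries. Homer1, a scaffold of postsynaptic glutamate receptors, was at 108, 127 and 151 CPM and at 120, 164 and 178 CPM (0.30 ± 0.09, adjusted p = 0.192). Pcsk1, a protease that matures neuropeptides, was at 15.3, 17.9 and 20.5 CPM and at 19.1, 23.4 and 24.1 CPM, with 6 of 7 open field libraries above the basal range (0.35 ± 0.07, adjusted p = 0.0850), and it was called by DESeq2 (adjusted p = 0.00329). With the Xkr4 split as covariate, edgeR called 3 genes of the list, namely Sik1 (adjusted p = 0.0279), a kinase that restrains CREB coactivators, Arl5b (0.00621) and Midn (0.0436). Bdnf, a neurotrophin whose mRNA can be induced by activity, differed by 0.09 ± 0.08 (adjusted p = 0.664), with a 95% interval from -0.07 to 0.24.

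Genes induced by glucocorticoids, the adrenal hormones released in stress, also leaned upwards. In this list 1 of 25 genes was called higher (Errfi1, shared with the feedback inhibitors), against 0.152% of all genes. A difference above 0 was found for 23, compared with 47.4% of all genes, and the median was 0.127. At an unadjusted p under 0.05, 8 were higher and 1, Cebpd (-0.46 ± 0.17), was lower, against 6.84% and 6.73% of all genes. Sgk1, a kinase, was at 74.0, 79.2 and 104 CPM in basal and at 82.9, 121 and 167 CPM in open field libraries (0.53 ± 0.13, adjusted p = 0.118). Per1, which is also a clock gene, was at 64.2, 80.3 and 87.6 CPM and at 82.7, 94.8 and 119 CPM (0.33 ± 0.09, adjusted p = 0.143). In both genes 6 of 7 open field libraries exceeded the basal range, and both were called by DESeq2. Fkbp5, a chaperone of the glucocorticoid receptor, differed by 0.03 ± 0.06 (adjusted p = 0.845), and its ranges of 69.8 to 88.4 and 67.7 to 89.1 CPM nearly coincided. Among 25 heat shock proteins and chaperones, 23 had a difference above 0, with a median of 0.075. At an unadjusted p under 0.05, 7 were higher, against 6.84% of all genes. In the 13 libraries edgeR called none without a covariate or block, and DESeq2 called 2 higher, against 169 of all 15116 genes. Dnajb1, a cochaperone of HSP70, was the one without overlap (41.7 to 47.6 CPM against 48.2 to 63.1 CPM, 0.26 ± 0.06, adjusted p = 0.0960, and 0.00828 by DESeq2).

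In lists of receptors, channels and respiration, no gene was called by either tool among 15 tested genes of the endocannabinoid system (median -0.036), 29 glutamate receptor genes (0.012), 21 genes of GABA receptors and synthesis (0.027), 41 potassium channel subunits (0.001) and 31 respiratory chain subunits (-0.005), where between 0 and 4 genes per list had an unadjusted p under 0.05. Cnr1 was at 313, 348 and 390 CPM in basal and at 338, 368 and 394 CPM in open field libraries (0.08 ± 0.05, adjusted p = 0.474), and its 95% interval ran from -0.01 to 0.17. Grin2b ranged from 22.5 to 125 CPM in basal and from 42.4 to 143 CPM in open field libraries (0.29 ± 0.36, adjusted p = 0.749). Its 3 lowest values, 22.5, 31.1 and 42.4 CPM, were those of the 3 low Xkr4 libraries, while the other 10 lay between 97.5 and 143 CPM, and without these 3 the difference was 0.004. Sst and Npy, peptides of interneurons, differed by 0.01 ± 0.07 and -0.06 ± 0.09. Among 19 circadian clock genes the median was 0.09 with 15 above 0, and in the 13 libraries none was called by edgeR. DESeq2 called 2 higher (Per1 and Bhlhe40, which is also in the immediate early list), against 169 of all 15116 genes. The neurotrophins and their receptors (11 genes, median 0.018) and the neuropeptides and granins (29 genes, median -0.018) had no gene called by edgeR in the 13 libraries without a covariate or block. In both lists DESeq2 called Pcsk1, which is also in the synaptic and secreted list. Among 29 ribosomal protein genes, none was called by either tool, 4 had a difference above 0, and the median was -0.055. At an unadjusted p under 0.05, 7 were lower, against 6.73% of all genes.

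No dentate tissue was sequenced in this series, so that marker levels do not show how complete the dissection was. Markers of CA1 pyramidal cells were present (Mpped1 at 248 to 340 CPM in basal and 266 to 328 CPM in open field libraries, Fibcd1 at 196 to 274 and 202 to 265 CPM), and their median difference was 0.015. Markers of dentate granule cells, which should be removed by the dissection, were also detected. Prox1 was at 20.0 to 60.0 CPM in basal and 20.1 to 45.5 CPM in open field libraries. Tdo2, the study's dentate marker, which it reported as not detected by RT-qPCR, was at 3.44 to 10.7 CPM and 2.98 to 6.37 CPM. Adgrl2, the gene of the study's CA marker latrophilin 2, was at 65.2 to 88.6 CPM and 73.5 to 94.9 CPM. The study's RT-qPCR set CA tissue against dentate samples, which these counts cannot do. The dentate markers summed to 613.4 to 1022 CPM and 599.2 to 762.2 CPM, highest in basal replicate 3. A difference below 0 was found for 13 of 14 (median -0.185, none called by edgeR or DESeq2). At an unadjusted p under 0.05, 3 were lower, against 6.73% of all genes. Of 13 choroid plexus and ependymal markers tested, 6 were lower at an unadjusted p under 0.05, against 6.73% of all genes. The markers had a median of -0.743, with all 13 below 0 and none called by edgeR or DESeq2. Their sum was 2402 CPM in basal replicate 3, with a basal median of 286 CPM, and 248 to 280 CPM in open field libraries. Without basal replicate 3 the median difference was -0.04 for these markers, with none at an unadjusted p under 0.05, and -0.03 for the dentate markers. Without basal replicate 3, 10 genes were called, all of them higher and all among the 24. No marker of CA3 and CA2 (median -0.088), subiculum and cortex (0.103), thalamus (-0.048), endothelial and mural cells (-0.01) or blood (-0.137, with 2 genes tested) was called by either tool, and between 0 and 3 of each list had an unadjusted p under 0.05. Markers of astrocytes (median -0.015), oligodendrocytes (0.078) and interneurons (0.025) differed little, and Sox9 (22.2 to 27.1 against 17.8 to 23.5 CPM, -0.25 ± 0.06, adjusted p = 0.127) was the astrocyte marker with the largest difference and the only one called by DESeq2.

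**Figure D3:**
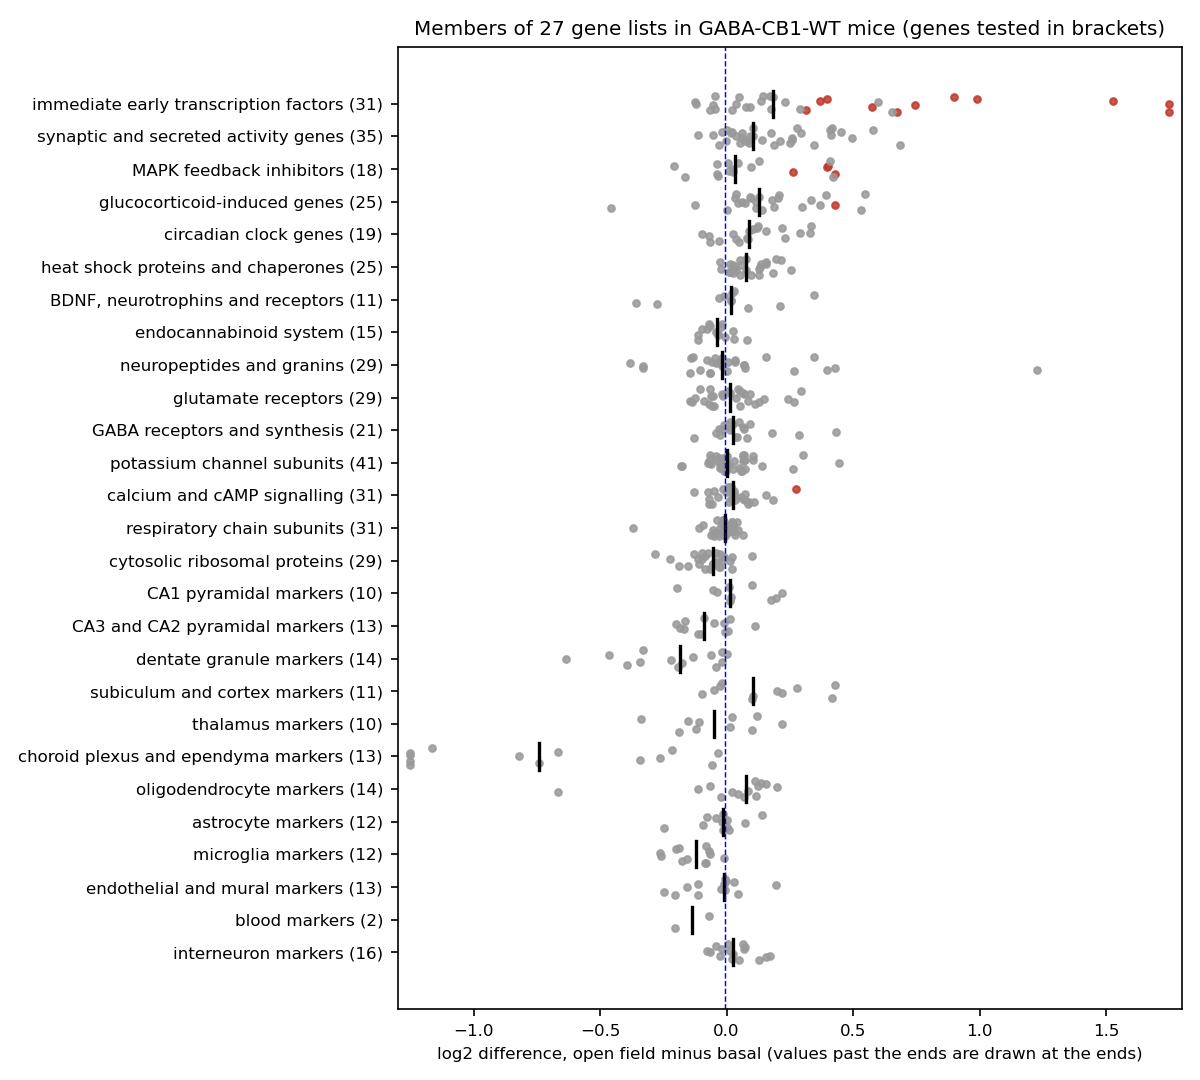
Log2 differences, open field minus basal, of every tested member of 27 gene lists (1 point per gene, red where the adjusted p is under 0.05), with the list median as a black bar and the median of all genes as a dashed line. Values beyond the axis, such as Egr2 and Fos on the right and Ttr on the left, are drawn at its ends. Red points lie on the right in the lists of immediate early factors, feedback inhibitors, glucocorticoid-induced genes and calcium signalling.

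The same exposure was given to the 3 other groups of the series, which share no libraries with these. In GABA-CB1-KO littermates (5 open field against 6 basal libraries), edgeR called 0 of 15081 genes, and 1831 (12.1%) had an unadjusted p under 0.05, 6.41% higher and 5.73% lower. The 23 genes that rose in GABA-CB1-WT mice, with a median of 0.398 there, had a median difference of 0.213, and 14 had an unadjusted p under 0.05. Egr2 differed by 1.64 ± 0.55 in GABA-CB1-KO mice, Fos by 1.49 ± 0.41, Fosb by 1.01 ± 0.31 and Egr1 by 0.73 ± 0.15. These are below the values of GABA-CB1-WT mice with larger errors. The difference between the genotypes was tested as an interaction over the 24 libraries of the line. None of 15374 genes passed in edgeR, while 2237 (14.6%) had an unadjusted p under 0.05, 7.1% with a higher response in CB1-WT mice and 7.45% with a lower one. DESeq2 called 62 genes, none of them among the 24. Among the 62 was Pcsk1, with a higher response in CB1-WT mice (0.53, DESeq2 adjusted p = 0.0272). C1qa (-0.41, adjusted p = 0.049) and C1qb (-0.34, adjusted p = 0.0374) had a lower one. In edgeR, the response of CB1-WT mice was higher by 1.37 ± 0.66 for Egr2 (adjusted p = 0.338), by 0.85 ± 0.51 for Fos (adjusted p = 0.431) and by 0.46 ± 0.22 for Nr4a2 (adjusted p = 0.338). A difference in Egr2, Fos and Nr4a2 was thus not detectable at this number of mice. Slc15a3 gave the smallest p among the 24, with -0.57 in CB1-WT and 0.09 ± 0.18 in GABA-CB1-KO mice (interaction -0.65 ± 0.19, adjusted p = 0.21). In the other line Slc15a3 differed by -0.11 ± 0.20 in Glu-CB1-WT and by -0.52 ± 0.15 in Glu-CB1-KO mice (adjusted p = 0.207), the latter of like size without passing. Because these genes were chosen for their change in CB1-WT mice, their values there are favoured in such a comparison.

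In the wild types of the other line (Glu-CB1-WT, strain nex-cre x CB1f/f, in which Cre acts in glutamatergic neurons, with the same age and sex, 5 open field against 5 basal libraries), edgeR called 0 of 14991 genes, with 830 (5.54%) at an unadjusted p under 0.05, 3.09% higher and 2.45% lower. The 23 genes had a median difference of 0.324 there, and 17 had an unadjusted p under 0.05. Egr2 differed by 2.62 ± 0.39, Fos by 2.13 ± 0.39, Fosb by 1.49 ± 0.20 and Egr1 by 0.83 ± 0.18, which is close to the values of GABA-CB1-WT mice. The interaction between the lines called 0 of 15350 genes in edgeR and 0 in DESeq2, with 864 (5.63%) at an unadjusted p under 0.05, 2.53% above and 3.1% below 0. For Fosb the difference between the lines was 0.04. In Glu-CB1-KO mice (7 against 7 libraries), 11 of 15021 genes were called (0.0732%, with 0.0533% higher and 0.02% lower), 10.4% had an unadjusted p under 0.05 (6.46% higher and 3.98% lower), and 6 of the 23 were among them (Egr1, Egr2, Egr4, Errfi1, Fos and Fosb). For the whole list of 31 immediate early factors, called or not, the median differences were 0.185 in GABA-CB1-WT, 0.208 in GABA-CB1-KO, 0.324 in Glu-CB1-WT and 0.2 in Glu-CB1-KO mice, and 17, 13, 16 and 16 members were higher at an unadjusted p under 0.05. Cyp51, Slc7a1 and Ptpn12 had differences between -0.00 and 0.03 in GABA-CB1-KO and Glu-CB1-WT mice, while Cyp51 was at 0.19 ± 0.04 and Ptpn12 at 0.13 ± 0.03 in Glu-CB1-KO mice. Noxred1 was higher by 0.85 ± 0.27, 0.51 ± 0.20 and 1.11 ± 0.26 in GABA-CB1-KO, Glu-CB1-WT and Glu-CB1-KO mice, none of which passed.

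**Figure D4:**
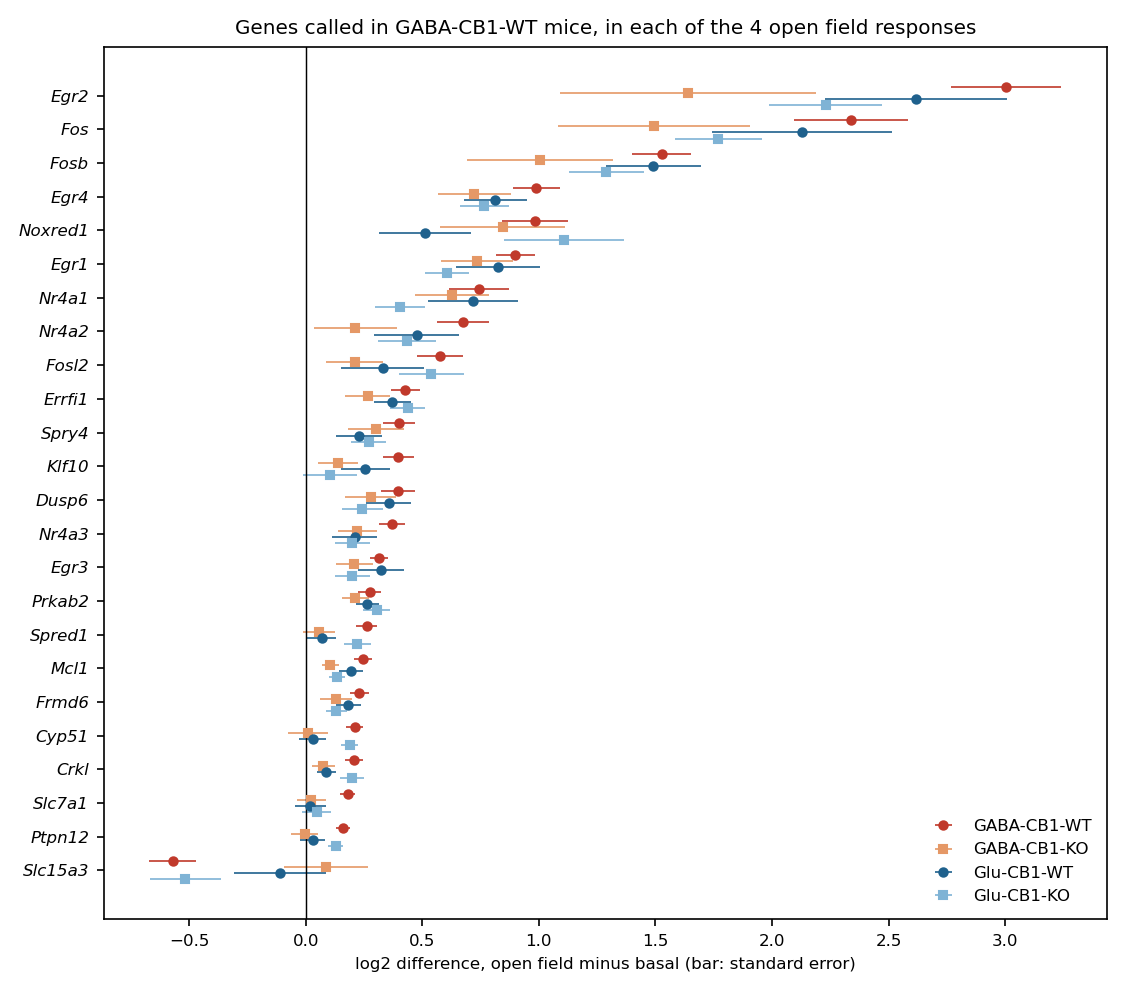
Log2 differences, open field minus basal, with their standard errors, of the 24 genes called in GABA-CB1-WT mice (red circles), in GABA-CB1-KO (orange squares), Glu-CB1-WT (dark blue circles) and Glu-CB1-KO mice (light blue squares). Egr2, Fos and Fosb are farthest to the right in all 4 responses, with 3.00, 2.34 and 1.53 in GABA-CB1-WT mice, and Slc15a3 is at -0.57 in that group.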

How the data were processed

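RNA from the CA region of 13 male GABA-CB1-WT mice had been sequenced, 1 library per mouse. The authors amplified it with a NuGEN Ovation kit, built Ovation Ultralow libraries, trimmed the single-end reads (bbduk), aligned them to mm10 (STAR 2.6.0a) and assigned them to genes by strand (featureCounts 1.6.2). Raw counts were deposited for 24421 genes, as whole numbers and not normalized. Without molecular identifiers, counting error is a lower limit, and p-values rest on the spread between mice. Amplification can alter how evenly a gene is covered.

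Groups follow the sample labels. edgeR 4.0.16 in R 4.3.3 (TMM, filterByExpr, glmQLFit, glmQLFTest) was run on the 13 libraries, with Benjamini-Hochberg adjustment over the 15116 genes tested and a threshold of 0.05. Standard errors come from the F statistic, and 95% intervals are 1.96 of them to each side. A prior count of 2 was added for log2 CPM in the principal components. On simulated counts of this layout with 200 genes changed, 47% of changes of 0.25 on the log2 scale were recovered, 79% at 0.5 and 94.5% at 1. Of the calls, 5.05%, 8.14% and 5.5% were false. Each gene was drawn around a common mean, without the low Xkr4 split or the choroid plexus RNA of basal replicate 3. These rates therefore need not hold for the real libraries, in which fewer genes were called. In 36 pairs of libraries within groups, the lowest chi-square per degree of freedom was 3.21, so that none of these pairs were duplicates. Libraries of different groups were not compared in this way. Tables and plots were made in Python 3.11.15 with pandas 2.3.3 and matplotlib 3.10.9.

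The comparison, the gene lists and the genes to be named were chosen with earlier results of these data known. Named are called genes of a pathway list, the called genes with the largest differences and no overlap of groups, the most abundant called genes in each direction, and a fixed set of genes of activity, stress, interneurons and dissection. Alternatives were DESeq2 1.42.0, its size factors (RLE), other filters, more libraries in the fit, a covariate for the range of animal numbers, a block for the replicate number, and fits that leave out 1 library. Added after the data were seen were fits without the libraries of Xkr4 under 10 CPM, with this split as covariate, and with a covariate from the principal components of all 48 libraries.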

Additional observations from a re-analysis of the deposited data

Results flagged for a closer look

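In 4 of 84 groups (42 named genes in 2 groups of libraries), 1 library stood so far from the rest that its gap to the nearest one took up most of the range of its group. By chance about 1 in 20 groups would do so, which is 4.2 here, so the number itself is not unusual. In 3 of the 4, it was the same home cage mouse, basal replicate 2, that stood high: Nr4a1 was at 54.6 CPM there against 45.4 CPM in the nearest basal library, Arc at 119 CPM against 86.7 CPM, and Dusp1 at 13.2 CPM against 10.1 CPM. The other is Npas4, low in basal replicate 6 with 8.54 CPM against 10.2 CPM in the nearest library. Without basal replicate 2, 27 genes were called, 21 of them among the 24.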

How the results depend on the processing

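Counts of called genes depended on the settings, while directions did not: none of the 42 named genes reversed where either value was called. Against 24 called, DESeq2 called 219, all 48 libraries in one fit 53, only the libraries with Xkr4 over 10 CPM 6, that split as a covariate 46 and the first principal component of 48 libraries as a covariate 38, and leaving out 1 library gave between 9 and 53. RLE size factors (24), other filters (22 and 24), the 24 libraries of the GABA line in one fit (31) and the range of animal numbers (23) stayed within 1.5 times. Egr1, Egr2, Egr4, Fos and Fosb were called under every alternative and with every library left out. The replicate numbers do not pair the mice (2 of 6 correlations of same-numbered libraries over 0.1, and 2 of 6 best matched by their own number), and with the replicate number as a block 36 genes were called, among them Junb, Pcsk1, Sik1, Arl5b, Tiparp, C1qa and Dnajb1, which were not called without it. The difference from GABA-CB1-KO mice called 0 genes in edgeR, 62 in DESeq2 and between 0 and 1 when a library was left out (Pwwp2b, without open field replicate 7 of the CB1-WT mice, named after its value was seen), and 0 with the block. The difference from Glu-CB1-WT mice called 0 in every fit. The exact permutation p-value of the first principal component (0.144) was 0.0589 with all genes that passed the filter. It was 0.019 with only the libraries of Xkr4 over 10 CPM, which include basal replicate 3. With 1 library left out it was between 0.0216 and 0.221, the lowest without open field replicate 1. The cause of these shifts was not tested. Rises under 0.25 on the log2 scale are close to what this number of mice can show.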
